A study of Mus musculus with 2 samples.

Results

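The genes described here encode kinetochore proteins, spindle checkpoint proteins and regulators of mitosis. They were 44 genes chosen by name, with earlier results of these data known, and all 44 were found among the 29913 genes of the array. All 44 were well above background in the control and the BIO channel of both arrays and were tested, among 21598 genes tested in all. The samples were ureters of wildtype NMRI mouse embryos, dissected at E12.5 and cultured as explants on transwell membranes for 18 h. One group received 10 µM BIO, an inhibitor of the kinase GSK3 that is used to activate canonical WNT signaling, and the control group received the solvent DMSO at 2 parts per 1000. Pooled ureters supplied the RNA of each sample, and the sex of the embryos was not determined. There were 2 arrays, each with control RNA in 1 channel and BIO RNA in the other. BIO RNA was labeled with AlexaFluor647 (red) in replicate 1 and with AlexaFluor555 (green) in replicate 2. Whole explants hold mesenchyme, epithelium, vessels and blood cells, so that a higher level can come from more cells that express a gene or from more RNA per cell, and these cannot be told apart.

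The kinetochore is the protein assembly on the centromere through which chromosomes attach to the microtubules of the spindle. Its inner layer sits on chromatin that contains the histone variant CENP-A, and its outer layer, with the NDC80 complex at its core, binds microtubules. The spindle checkpoint keeps the anaphase-promoting complex inactive until chromosomes are attached, and the chromosomal passenger complex with the kinase Aurora B corrects faulty attachments. Cyclin B with CDK1 drives entry into mitosis, and destruction of cyclin B and securin allows the exit. Many of these genes are transcribed mainly in G2 and M phase. In textbook accounts this timing rests on the cell cycle genes homology region (CHR), a short promoter element with the letters TTTGAA or TTTAAA that the MuvB complexes bind, often near CCAAT boxes, which are bound by NF-Y.

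Promoter sequences were looked up because most members moved together. The RefSeq promoter table (GRCm38.p6, 250 bases before to 50 bases after each annotated start) held 42 promoters for 37 of the 44 members, and Aurkb, Ccna2, Cdc25c, Incenp, Spc24, Tpx2 and Zwilch had no entry. The sequences below are the 120 bases that end just before the annotated start, 5′ to 3′ in the direction of the gene, for 6 members whose RNA rose and for Bub3 and Zwint, which were not called. They are examples, and each holds a CHR match. Over the whole promoter such a match was found for 26 of the 37 members, beside 30.6% of the 27025 genes in the promoter table. Bub1, Cenph and Cenpi, for example, rose and held only CCAAT. Capitals mark TTTGAA or TTTAAA and CCAAT on either strand, so that TTCAAA and ATTGG are in capitals too.
Cdk1 (chr10:69352913-69353032, minus strand): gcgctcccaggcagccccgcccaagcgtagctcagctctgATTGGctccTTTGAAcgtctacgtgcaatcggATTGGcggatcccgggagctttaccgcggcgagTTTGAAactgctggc
Ccnb1 (chr13:100786487-100786606, minus strand): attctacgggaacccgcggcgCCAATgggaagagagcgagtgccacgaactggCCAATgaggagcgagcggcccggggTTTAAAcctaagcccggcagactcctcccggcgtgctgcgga
Cdc20 (chr4:118437344-118437463, minus strand): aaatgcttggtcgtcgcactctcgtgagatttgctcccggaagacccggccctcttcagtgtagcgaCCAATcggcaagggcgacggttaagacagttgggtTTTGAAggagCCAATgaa
Espl1 (chr15:102296173-102296292, plus strand): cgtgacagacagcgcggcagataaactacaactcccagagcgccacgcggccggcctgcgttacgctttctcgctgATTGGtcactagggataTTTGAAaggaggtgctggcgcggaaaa
Top2a (chr11:99024190-99024309, minus strand): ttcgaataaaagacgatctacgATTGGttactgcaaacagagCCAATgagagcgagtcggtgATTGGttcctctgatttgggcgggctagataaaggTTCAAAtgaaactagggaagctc
Mki67 (chr7:135716380-135716499, minus strand): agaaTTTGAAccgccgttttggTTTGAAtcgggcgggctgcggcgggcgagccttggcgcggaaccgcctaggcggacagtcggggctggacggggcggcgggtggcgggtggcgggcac
Bub3 (chr7:131560250-131560369, plus strand): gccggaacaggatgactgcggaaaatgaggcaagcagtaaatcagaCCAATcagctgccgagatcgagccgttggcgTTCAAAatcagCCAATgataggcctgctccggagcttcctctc
Zwint (chr10:72654726-72654845, plus strand): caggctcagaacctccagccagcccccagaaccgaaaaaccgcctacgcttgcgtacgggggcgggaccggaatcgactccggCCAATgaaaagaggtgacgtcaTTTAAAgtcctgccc

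In these windows the first base of a CHR lay at −71 and −15 in Cdk1, at −42 in Ccnb1, at −18 in Cdc20, at −27 in Espl1, at −23 in Top2a, at −116 and −98 in Mki67, at −43 in Bub3 and at −15 in Zwint, counted back from the start. Over the whole 300 bases, TTTGAA on either strand was found in 24 of the 42 promoters of members (57.1%) and in 17.9% of the 32851 promoters of the table. TTTAAA was found in 23.8% and 13.2%, respectively, and CCAAT in 78.6% and 37.4%. Counted by gene, a CHR of either form together with CCAAT in 1 promoter was found for 22 of the 37 members (59.5%) and for 12.2% of the 27025 genes of the table. The median G and C content was 58% in the promoters of members and 52.7% in all promoters. Of 27 TTTGAA matches in the first listed promoters of the members, 20 began within 50 bases of the start. The promoters of Cenpo, Cenpp, Mad2l1, Nuf2 and Pttg1 held none of these letters. In the other lists of cell division genes described below, the share of promoters with TTTGAA ranged widely. It was 0% for paralogs of members, 15.8% for DNA replication genes and 66.7% for further spindle and cytokinesis genes. Counted by gene, a CHR of either form was found for 69.7% of the 33 matched members that rose, beside 30.6% of all genes of the table. It was also found for 3 of the 4 members not called. Such matches are descriptions of sequence, not sites of binding. As given above, the CHR is described for genes of G2 and M phase, many of the members among them. A higher share in the members than in all promoters therefore does not bear on the response to BIO.

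**Figure D1:**
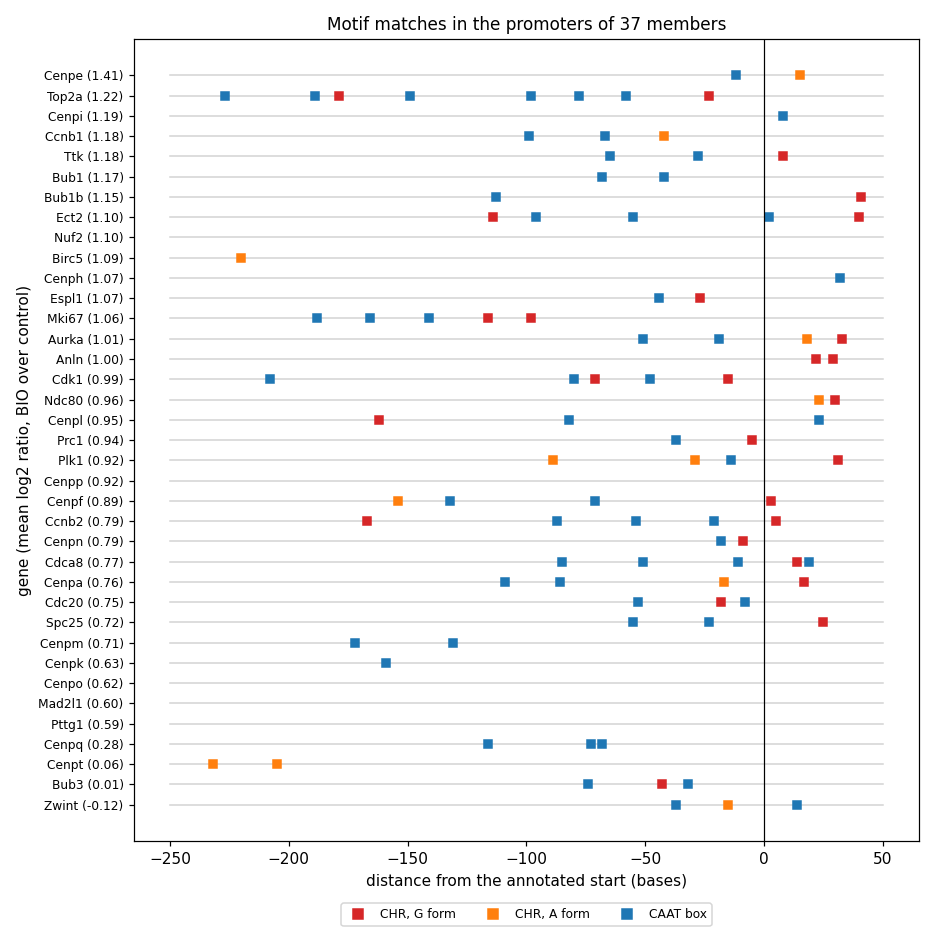
Positions of the CHR (TTTGAA form in red, TTTAAA form in orange) and of CCAAT (blue) in the first listed RefSeq promoter of 37 members, with the distance from the annotated start in bases on the x axis and genes ordered by mean log2 ratio of BIO over control, given in brackets. Red squares lie mostly near the start, 20 of 27 within 50 bases, and the bottom 4 genes, which were not called, also hold matches.

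The comparison asked how the RNA levels of these genes differed between explants with BIO and control explants. Of the 44 members, 40 rose with BIO and 0 fell (limma, Benjamini-Hochberg adjusted p below 0.05 over all probes tested), beside 9.14% of all genes tested that rose and 14.8% that fell. The median log2 ratio of the members was 0.94, which is a 1.92-fold higher level, with 0.90 in replicate 1 and 0.95 in replicate 2, whereas the median of all genes tested was −0.01. Only 1.19% of all genes tested had a ratio at or above the median of the members, and 40 of the 44 members lay among the highest 5% of ratios. The log2 ratios of the 40 genes ranged from 0.59 for Pttg1 to 1.41 for Cenpe, with standard errors between 0.11 and 0.12 (n = 2 arrays) and adjusted p between 0.000137 and 0.00852. The standard errors (SE) here and below are those of limma. They lean mostly on the spread shared over all probes and do not measure the spread of a gene's own 2 arrays. Of these 40 genes, 32 lay within 0.25 of the median of the members. Cenpq, Cenpt, Zwint and Bub3 were not called. The members had been chosen with earlier results of these data known, so that these shares describe the list and do not test it.

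**Figure D2:**
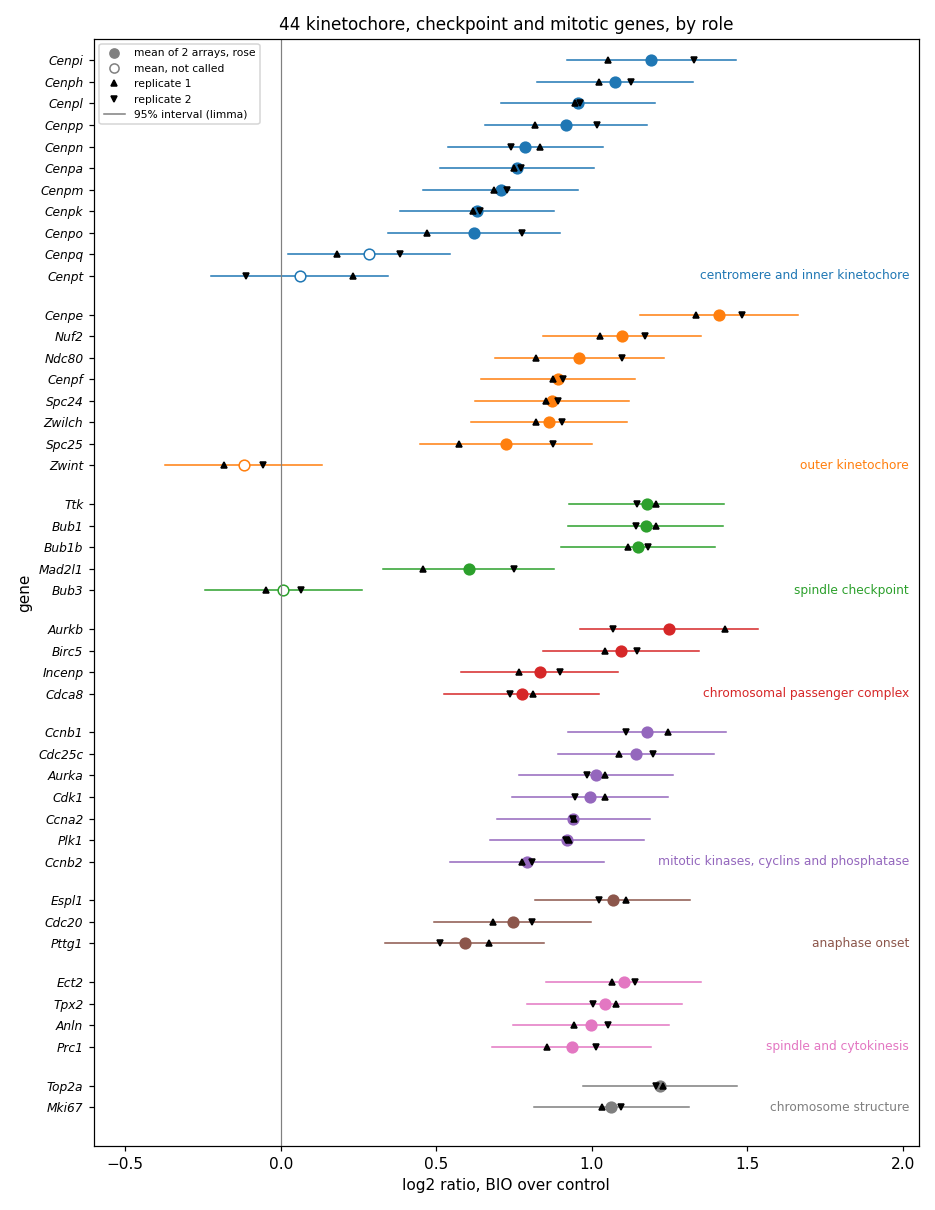
Log2 ratio of BIO over control for each of the 44 members, grouped by role. Circles are means of 2 arrays (filled for genes that rose, open for genes not called), lines are 95% intervals from limma, and triangles are the single arrays. All filled circles lie between 0.59 and 1.41, and Cenpq, Cenpt, Zwint and Bub3 lie between −0.12 and 0.28.

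**Figure D3:**
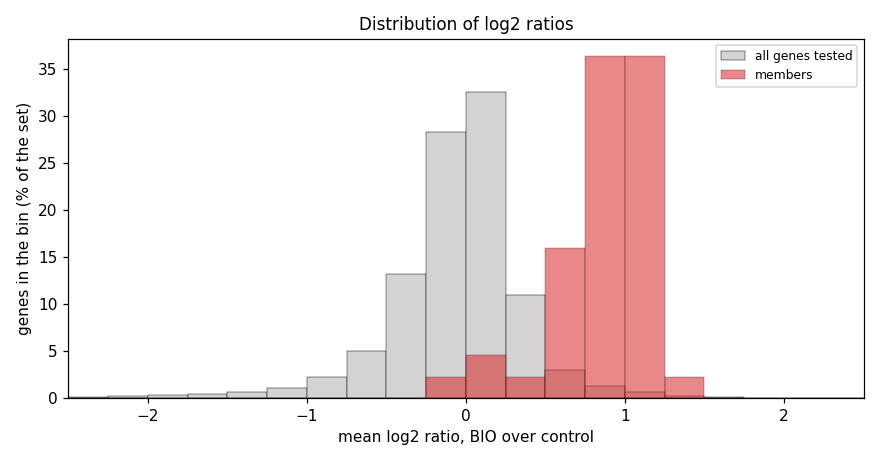
Share of genes in bins of mean log2 ratio of BIO over control, each 0.25 wide, for all 21598 genes tested (grey) and for the 44 members (red). All genes centre on −0.01, while most members lie between 0.5 and 1.25.

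Both arrays gave similar ratios for these genes. The median absolute difference between the log2 ratios of both arrays was 0.0987 for the members and 0.164 for all genes tested. BIO was higher on both arrays for 41 members. For each of the 40 genes that rose, both BIO levels lay above both control levels. These genes were called from the same values, so that this adds no separate evidence. Neither count was made over all genes. The lowest ratio of a single array among the genes that rose was 0.46. Levels are given below per channel in arbitrary linear units, in the order control and BIO, and are comparable for a gene between channels but not between genes.

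Of the 11 genes of the centromere and inner kinetochore, 9 rose, with a median log2 ratio of 0.76 over all 11. Cenpa, the centromeric histone H3 variant (probe at chr5:30974916-30975386, mm9), read 14675 and 24697 in replicate 1 and 13363 and 22800 in replicate 2. The ratios of both arrays were thus almost equal, with a mean log2 ratio of 0.76 ± 0.11 (SE, n = 2; limma adjusted p = 0.00183). The other members of this layer belong to the constitutive centromere-associated network, which connects CENP-A chromatin with the outer kinetochore. In this network, log2 ratios were 1.19 for Cenpi, 1.07 for Cenph, 0.95 for Cenpl, 0.92 for Cenpp, 0.79 for Cenpn, 0.71 for Cenpm, 0.63 for Cenpk and 0.62 for Cenpo. Cenpk lost its call with median centering in place of loess (adjusted p = 0.0501), and Cenpo lost its call with median centering (0.0843) and with the processed signals of the scanner software (0.0605), all by limma.

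Cenpq and Cenpt did not pass the test. Cenpq, a subunit of the same subcomplex as Cenpo and Cenpp, read 5812 and 6587 in replicate 1 and 5560 and 7256 in replicate 2. Its mean log2 ratio was 0.28 with a 95% interval from 0.02 to 0.54 (limma adjusted p = 0.112), and its dimmer probe gave 0.29 (adjusted p = 0.132). Cenpt, a DNA-binding subunit that recruits the NDC80 complex, read 6973 and 8197 in replicate 1 and 7297 and 6755 in replicate 2. It was higher with BIO on one array and lower on the other, with a mean of 0.06 and an interval from −0.22 to 0.34 (limma adjusted p = 0.774). Among tested probes, Cenpp was the only member with a called and an uncalled probe, and a dim further probe of Ect2 was not tested. The brighter Cenpp probe read 3352 and 5908 in replicate 1 and 3153 and 6377 in replicate 2. The dim Cenpp probe read 160 and 194 in replicate 1 and 146 and 173 in replicate 2, with a log2 ratio of 0.26 (limma adjusted p = 0.122). The offset of 50 that was added to the intensities pulls the ratios of such dim probes toward 0. In the processed signals, without this offset, the dim probe read 31.8 and 47.5 in replicate 1 and 32.7 and 44.2 in replicate 2. The brighter probe read 1196 and 2204 in replicate 1 and 1240 and 2543 in replicate 2. The dim probe lies at chr13:49655585-49655644 and the brighter one at chr13:49560073-49560132. Why they differ was not tested.

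Of the 8 genes of the outer kinetochore, 7 rose, and the median of all 8 was 0.88. Cenpe encodes the kinesin that moves chromosomes to the spindle equator (probe at chr3:134936387-134936446). It read 11146 and 28098 in replicate 1 and 11512 and 32201 in replicate 2. This was the highest ratio among the members, 2.66-fold (log2 ratio 1.41 ± 0.11, SE, n = 2; limma adjusted p = 0.000137), and rank 46 among all genes tested. The first place depended on the processing. With the processed signals, the log2 ratio was 1.44 for Cenpe and 1.62 for the dim gene Aurkb. In the deposited score table they were 1.46 and 1.65. Cenpf, a large protein of the outer kinetochore, was dim, with 194 and 355 in replicate 1 and 192 and 361 in replicate 2. Its log2 ratio was 0.89, and 1.31 with the processed signals.

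The NDC80 complex consists of Ndc80, Nuf2, Spc24 and Spc25, and all 4 genes rose. Ndc80 read 2980 and 5265 in replicate 1 and 2933 and 6274 in replicate 2 (log2 ratio 0.96). Nuf2 read 1798 and 3660 in replicate 1 and 1749 and 3937 in replicate 2 (log2 ratio 1.10). Its dimmer probes also rose, with log2 ratios of 0.38 and 0.56. Spc24 and Spc25 had log2 ratios of 0.87 and 0.72. Zwilch, a subunit of the complex that brings dynein to kinetochores, had a log2 ratio of 0.86. Zwint, a kinetochore protein that docks this complex, read 62128 and 54742 in replicate 1 and 61390 and 59068 in replicate 2. Its channels lay close together on both arrays, with a log2 ratio of −0.12, the lowest among the members, and an interval from −0.37 to 0.13 (limma adjusted p = 0.491). The dimmer Zwint probe read 22170 and 27033 in replicate 1 and 23417 and 25819 in replicate 2, which is a log2 ratio of 0.21 in the opposite direction and was not called either (limma adjusted p = 0.207). The sign and the last place of Zwint depended on the processing. With median centering, Zwint had 0.07 and Cenpt 0.02. With the mean over all tested probes of a gene, Zwint had 0.05 and Bub3 0.01.

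Of the 5 spindle checkpoint genes, 4 rose, with a median of 1.15 over all 5. Bub1, a checkpoint kinase (probe at chr2:127626988-127627047), read 6803 and 15681 in replicate 1 and 7580 and 16716 in replicate 2. Bub1b, which encodes BUBR1, a part of the mitotic checkpoint complex, read 4731 and 10261 in replicate 1 and 4512 and 10216 in replicate 2. Ttk, the kinase MPS1 that starts checkpoint signaling, read 1444 and 3333 in replicate 1 and 1450 and 3207 in replicate 2. These 3 genes had almost the same log2 ratios, 1.17 for Bub1, 1.15 for Bub1b and 1.18 for Ttk, each with an SE of 0.11. Mad2l1, which encodes MAD2, the inhibitor of CDC20, read 10996 and 15109 in replicate 1 and 10379 and 17442 in replicate 2. Its log2 ratio was lower at 0.60 (limma adjusted p = 0.00852), its other probes gave 0.66 each, and its call was lost with the processed signals (adjusted p = 0.0633). Bub3, the partner of BUB1 and BUBR1 at kinetochores (probe at chr7:138712221-138714437), read 31067 and 30044 in replicate 1 and 29188 and 30535 in replicate 2. BIO and control overlapped, with a log2 ratio of 0.01 and a 95% interval from −0.24 to 0.26, which lies below the estimates of all 40 genes that rose.

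All 4 genes of the chromosomal passenger complex rose, with a median of 0.96. Aurkb, which encodes the kinase Aurora B, was dim, with 235 and 631 in replicate 1 and 268 and 562 in replicate 2. It had the largest difference between arrays of all members, with log2 ratios of 1.43 and 1.07 and a mean of 1.25 ± 0.12 (SE, n = 2; limma adjusted p = 0.000346). Birc5, which encodes survivin, read 24339 and 50177 in replicate 1 and 26840 and 59373 in replicate 2, and its log2 ratio was 1.09. Incenp, the scaffold of the complex, read 11519 and 19579 in replicate 1 and 11578 and 21591 in replicate 2. It had a log2 ratio of 0.83, and Cdca8, which encodes borealin, had 0.77.

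All 7 mitotic kinases, cyclins and phosphatase genes rose, with a median of 0.99. Cdk1, the kinase of mitotic entry (probe at chr10:68801072-68801131), read 6500 and 13378 in replicate 1 and 6857 and 13206 in replicate 2. Its partner cyclin gene Ccnb1 read 13775 and 32672 in replicate 1 and 15660 and 33796 in replicate 2. Log2 ratios were 0.99 ± 0.11 for Cdk1 (limma adjusted p = 0.00054) and 1.18 ± 0.11 for Ccnb1 (0.00027; SE, n = 2). The 3 probes of Ccnb1 gave 1.18, 1.14 and 1.10, whereas those of Cdk1 gave 0.99, 1.16 and, for the dimmest, 0.41. Ccnb2 read 12955 and 22182 in replicate 1 and 12557 and 21986 in replicate 2. Ccna2, the cyclin of S phase and G2, read 19679 and 37796 in replicate 1 and 20237 and 38836 in replicate 2. Their log2 ratios were 0.79 and 0.94. Cdc25c, a phosphatase that activates CDK1, read 2146 and 4563 in replicate 1 and 2052 and 4699 in replicate 2 (log2 ratio 1.14). Plk1, the polo-like kinase of mitosis, read 7388 and 14028 in replicate 1 and 7011 and 13246 in replicate 2, with a log2 ratio of 0.92. Aurka, the kinase of spindle poles, read 7814 and 16089 in replicate 1 and 7870 and 15568 in replicate 2, with a log2 ratio of 1.01. In each of these 7 genes the BIO channel was the higher one in either dye.

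All 3 genes of anaphase onset rose, with a median of 0.75. Cdc20, the activator of the anaphase-promoting complex that the checkpoint inhibits, read 23313 and 37412 in replicate 1 and 23443 and 41044 in replicate 2 (log2 ratio 0.75). Espl1, which encodes separase, the protease that cleaves cohesin, read 2090 and 4514 in replicate 1 and 2088 and 4242 in replicate 2 (log2 ratio 1.07). Pttg1, which encodes securin, the inhibitor of separase, read 15158 and 24103 in replicate 1 and 17658 and 25189 in replicate 2. Its log2 ratio of 0.59 was the lowest of the genes that rose (limma adjusted p = 0.00686), and its call was lost with the processed signals (adjusted p = 0.0517). The separase gene thus had a higher ratio than the gene of its inhibitor, with 95% intervals from 0.82 to 1.32 and from 0.34 to 0.85 that overlap slightly, and the difference was not tested.

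**Figure D4:**
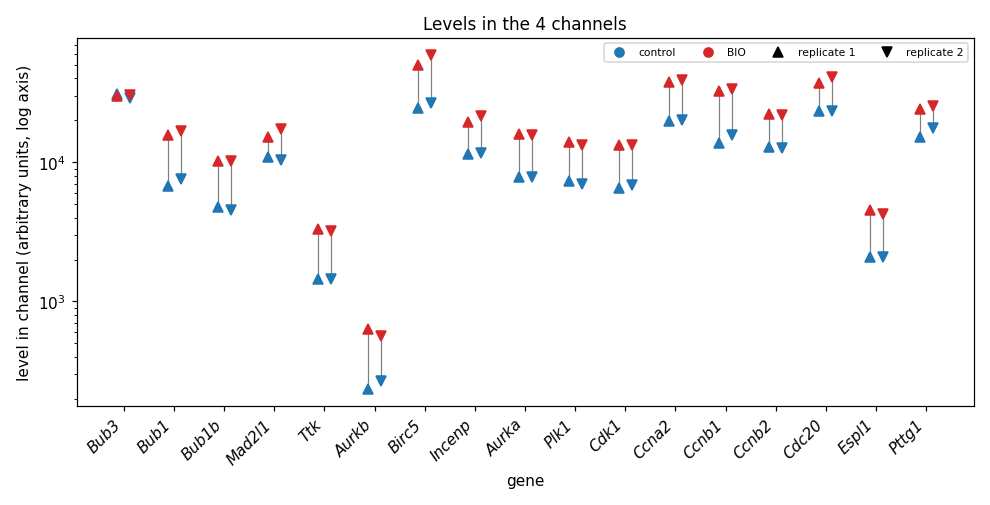
Levels of 17 checkpoint, passenger complex, kinase, cyclin and anaphase genes in the 4 channels, in arbitrary units on a log axis, for control (blue) and BIO (red) in replicate 1 (upward triangles) and replicate 2 (downward triangles). BIO lies above control on both arrays for each gene except Bub3, and levels of different genes are not comparable.

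All 4 genes of spindle and cytokinesis rose, with a median of 1.02. Tpx2, which activates Aurora A on spindle microtubules, read 5595 and 11823 in replicate 1 and 5990 and 12013 in replicate 2 (log2 ratio 1.04). Prc1, which bundles microtubules of the central spindle, read 13795 and 24985 in replicate 1 and 14228 and 28747 in replicate 2 (log2 ratio 0.94). Ect2 and Anln, which act on the contractile ring, had log2 ratios of 1.10 and 1.00. Both genes of chromosome structure rose as well. Top2a, the topoisomerase that untangles sister chromatids, read 5492 and 12876 in replicate 1 and 5522 and 12753 in replicate 2, with a log2 ratio of 1.22. Mki67, which encodes the proliferation marker Ki-67 that coats mitotic chromosomes, read 21090 and 43103 in replicate 1 and 22718 and 48499 in replicate 2, with a log2 ratio of 1.06.

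A fold rule without a test was applied to the processed signals, modeled on the intensity and fold-change cut-offs used for other arrays of the study. It asked for a ratio of at least 2-fold in 1 direction and, a choice made here, at least 100 in the brighter channel, on both arrays. By this rule 19 members were higher with BIO and 0 were lower, beside 0.752% of all 29913 genes that were higher. They were Cenph, Cenpi, Cenpe, Cenpf, Nuf2, Bub1, Bub1b, Ttk, Aurkb, Birc5, Aurka, Ccnb1, Cdc25c, Espl1, Anln, Ect2, Tpx2, Mki67 and Top2a. Cenpf and Aurkb passed although their control channels were below 100, at 44.8 and 49.4 for Cenpf and 61.5 and 77.8 for Aurkb. With a minimum of 1.5-fold there were 37, and with a minimum of 3-fold there were 0. Shares over all genes were not counted at these minimums.

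Further genes of the same machinery were read from the same fit. Of 25 other kinetochore and centromere genes tested, 19 rose and 0 fell, with a median log2 ratio of 0.68. The lowest one called was Apitd1, the gene of CENP-S, with 0.54. Cenpb, Cenpc1, Mad1l1, Mis12, Stra13 and Zw10 were not called. Of 17 further spindle and cytokinesis genes, 16 rose, with a median of 0.94. Aspm, a spindle pole protein, was highest with 1.38, and Cep192, a centrosome scaffold, was the lowest one called with 0.50, while Numa1 was not called (−0.10; limma adjusted p = 0.557).

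Most genes of the anaphase-promoting complex were not called. Of 18 genes of the complex and its partners, 2 rose and 0 fell, with a median of 0.02. Of all genes tested, 9.14% rose and 14.8% fell. Those that rose were Fbxo5, which encodes the inhibitor EMI1 (1.06), and Ube2c, its ubiquitin-conjugating enzyme (1.03). None of the 14 subunit genes on the list was called, and their log2 ratios lay between −0.24 and 0.33. Of 19 cohesin and condensin genes, 9 rose and 0 fell, with a median of 0.29. Ncapg, a condensin subunit, was highest with 1.17, and the cohesin gene Smc1a was the lowest one called with 0.45, while the cohesin genes Smc3, Rad21 and Stag2 were not called (0.13, 0.01 and −0.02). Of 15 further regulators of mitotic entry and exit, 9 rose and 0 fell, with a median of 0.45, from 0.44 for the CDK1-inhibiting kinase Pkmyt1 to 1.15 for Cks2, a CDK-binding subunit.

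Of 14 genes of the MuvB complexes, FOXM1 and the pocket proteins, which bind or act through CHR and E2F elements, 6 rose and 1 fell, with a median of 0.31. E2f8, an E2F repressor, was highest with 1.14. Foxm1 and Mybl2, which activate G2 and M genes, rose with log2 ratios of 0.80 and 0.74, and the MuvB core gene Lin9 with 0.53. Rb1, which encodes the retinoblastoma protein, read 7550 and 4727 in replicate 1 and 7931 and 5016 in replicate 2, and fell by 0.67 on the log2 scale (limma adjusted p = 0.00338).

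Some genes are paralogs of members but have other roles. Of 9 such genes tested, 1 rose and 2 fell, with a median of 0.03. Plk2 read 24347 and 13478 in replicate 1 and 25936 and 13814 in replicate 2. It fell by 0.88 on the log2 scale, and Plk3 fell by 0.70, whereas Plk1 rose with a log2 ratio of 0.92. Top2b, the paralog of Top2a that non-dividing cells also express, was not called (−0.25; limma adjusted p = 0.137), and Ccna1, a dim gene, rose with 0.65. Of 20 DNA replication genes listed for comparison, 19 rose and 0 fell, with a median of 0.70, from 0.36 for Rfc3 to 1.10 for the primase gene Prim1, and Mcm7 was not called.

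**Figure D5:**
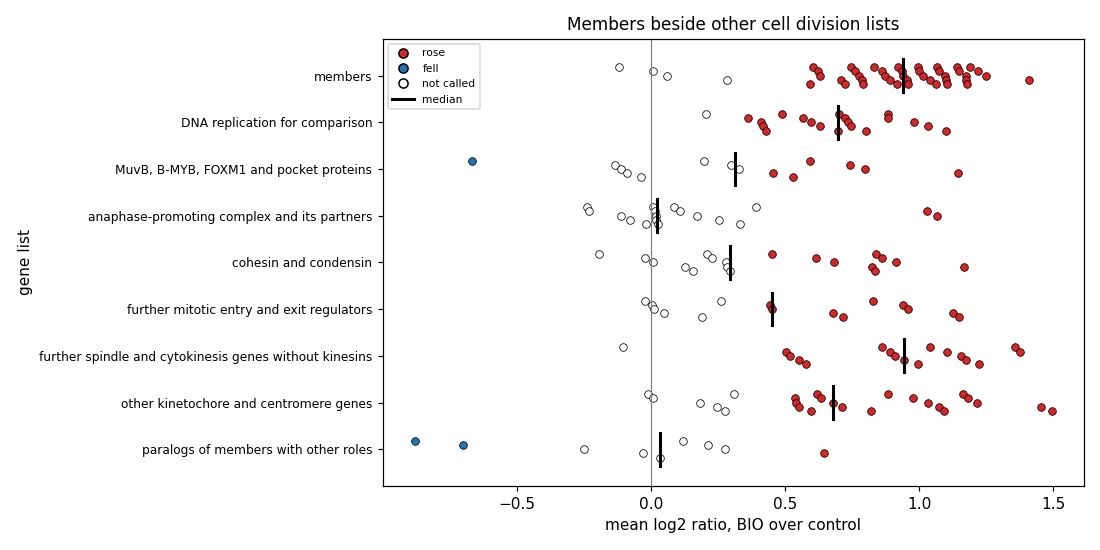
Mean log2 ratio of BIO over control for each gene tested in the members and in 8 other lists of cell division genes. Points are red for genes that rose, blue for genes that fell and white for genes not called, and black bars are medians. The members have a median of 0.94, and the anaphase-promoting complex and the paralogs have medians of 0.02 and 0.03.

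Markers of the cell types in the explants moved with the same comparison. For all counts below, 14.8% of all genes tested fell and 9.14% rose. Of 12 markers of the ureteric mesenchyme 8 fell and 0 rose (median −0.54), and of 12 markers of the ureteric epithelium 6 fell and 0 rose (median −0.38). The mesenchyme list holds Bmp4, Ptch1 and Foxf1, which the paper reports as reduced in the mesenchyme with LiCl, also a GSK3 inhibitor. Fewer cells and less RNA per cell cannot be told apart here. All 8 endothelial markers fell, with a median of −2.07, and their summed level dropped on the first array from 80577 to 14744 with BIO, and on the second from 86548 to 25259. Of 7 macrophage markers tested 4 fell (median −0.44), of 7 erythroid markers 3 fell (median −0.37), and of 8 markers of kidney mesenchyme 3 fell and 1 rose (median −0.14). In each of the 6 lists 0 markers were below background in every channel, those of kidney mesenchyme, macrophages and erythroid cells included, so that this count does not tell the ureter from other tissue. The part of these shifts in the result for the mitotic genes was not tested. Before normalization the control channel was the brighter one on both arrays, with median spot intensities of 603 against 369 in replicate 1 and 469 against 411 in replicate 2.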

How the data were processed

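RNA of ureter explants was measured on 2 Agilent 2-color arrays, each with 4 spots per probe, on 1 slide. Per the labels, the authors used Agilent Feature Extraction 10.7.3.1. The deposited scanner files hold mean spot intensities and local background intensities, without correction or normalization, and processed signal intensities that the software had background-subtracted and dye-normalized. A further deposited table holds 1 score per probe and array, whose values track the fold change between BIO and control, with a sign for its direction. How the authors made it is not given in the sources used here, and it served as an alternative only.

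Mean intensities were corrected by normexp with an offset of 50 and normalized within each array by loess (limma 3.58.1 in R 4.3.3). Control spots and spots marked as outliers had weight 0 and were then left out, with 0 saturated spots. Spots were then averaged by probe, and the sign of the array with exchanged dyes was turned. Probes well above background (in more than a share of 0.5 of their spots) in the same group on both arrays were tested, 28824 of 39429. A two-sided limma test (lmFit, eBayes) compared the log2 ratios with 0, and adjusted p below 0.05 were called. The prior had 7.14 degrees of freedom, and the number of arrays limits the precision. Each gene was represented by its brightest probe under the name in the file, and 18 members had more than 1 probe. Levels per channel come from loess followed by quantile normalization of the average intensities between arrays. The fold rule used processed signals with a floor of 15, centered on each array's median. Probe coordinates are in mm9, and promoter coordinates in GRCm38.p6.

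Replicate numbers come from the labels, and per the study's methods each replicate was its own pool of ureters. The script was tested on simulated data. Values in all channels are printed for a set of members chosen by role, the highest and the lowest member, members not called and members whose probes disagree, and for other lists the highest and the lowest gene called are named, except 1 that is not reported here; other genes were named for their role after their values were known. The members and lists were chosen with earlier results of these data known.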

Additional observations from a re-analysis of the deposited data

How the results depend on the processing

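The number of members that rose was 40 in the reported analysis. It was 37 with processed signals, 38 with median centering in place of loess, and 40 with an offset of 16, without a filter on dim probes and with the mean over all tested probes of a gene, while 0 members fell under each of these. The median log2 ratio of the members, 0.94 as reported, was 1.00 with processed signals, 0.90 with median centering and 1.00 in the deposited score table, and from 0.90 to 0.95 when 1 array was left out. The count of 19 members at least 2-fold higher on both arrays was 37 when 1.5-fold sufficed and 0 when 3-fold was required. Single arrays gave 21 to 23, and the ratios after normexp and loess gave 16. Shares over all genes were not counted for these variants of the fold rule. Single calls were lost for Cenpk, Cenpo, Mad2l1 and Pttg1 as given above, no member changed direction past the threshold, and the cause was not tested. Over all genes, 800 rose and 1126 fell with processed signals, and 828 rose and 1941 fell with median centering, instead of 1974 and 3186. The median of all genes tested lay between −0.04 and 0.03 in the settings with a test. The test was already paired, because each array holds 1 control and 1 BIO sample and every ratio is a comparison within an array. With 2 arrays there is 1 residual degree of freedom, and the test leans on the spread shared over all probes. The score table is rounded, and it moved the ratios of 13 members by more than their spread between arrays.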
